A study of Mus musculus with 28 samples.

Results

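A set of 9 macrophage and complement genes was followed through sorted mouse germ cells, whole testes and a whole ovary: the receptors *C3ar1* and *C5ar1*, the integrin chains *Itgam*, *Itgax* and *Itgb2*, and the macrophage markers *Adgre1*, *Csf1r*, *Cd68* and *Mrc1*. They were listed by name, but with earlier results of these data known, the *Adgre1* level in spermatids among them. They are 9 of the 37122 genes in the table (24 of 94480 transcripts). The values of a gene's transcripts were added up in each of 28 RNA-seq libraries from 13 mice. Labels give the strain as C57BL/6 and the genotype as wildtype or *Csmd1* knockout. The knockout allele is constitutive: exon 1 and part of intron 1 are deleted and a lacZ and neomycin cassette stands in their place. It was first obtained on a mixed 129SvEvBrd:C57BL/6 background. Germ cells of 8 males were stained with Hoechst and sorted into 4 gates. The spermatogonia gate was read from 2 wildtype and 2 knockout mice, the primary spermatocyte gate from 2 and 4, the secondary spermatocyte gate from 2 and 3, and the spermatid gate from 3 and 2. Whole testes came from 2 wildtype and 5 knockout mice, and the ovary from 1 wildtype mouse. The study's methods describe the sorted males as sexually mature and the whole testes as taken from immature and mature males, and the labels give no age for any mouse used here.

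Macrophages are the main immune cells of the testis and lie mostly in the tissue between and around the seminiferous tubules, outside the barrier that Sertoli cells form around meiotic and later germ cells. C3aR and C5aR1 are the receptors for the fragments C3a and C5a that are cut from complement proteins C3 and C5. The chains encoded by *Itgam* (CD11b) and *Itgax* (CD11c) each pair with the shared chain encoded by *Itgb2* (CD18), and the pairs are complement receptors 3 and 4, which bind C3 cleaved to iC3b. *Csf1r* encodes the receptor for the growth factors CSF1 and IL34, on which macrophages depend, *Adgre1* the adhesion receptor F4/80, *Cd68* a lysosomal membrane protein and *Mrc1* the mannose receptor CD206. No gate is meant to hold macrophages, so the question was which gate carried the RNA of these genes and which genes did not move with the rest.

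Values are RPKM, reads scaled to the length of the transcript and to the mapped reads of the library, and levels of different genes are compared only on this scale. The estimated depth was 23796775 to 61642401 mapped reads in 27 libraries and is unknown for the primary spermatocyte library of knockout mouse 613, whose values follow no whole-read step. That library stands apart and is named wherever it matters. In the spermatogonia gate 6 of 6 spermatogonial markers were called higher than in the other gates, as were 23.1% of all genes. In the primary spermatocyte gate 1 of 6 primary spermatocyte markers was called higher, as were 5.3% of all genes. The median log2 difference of these 6 was 1.08 there and 1.09 in the spermatogonia gate. In the spermatid gate 2 of 6 spermatid markers were called higher, as were 10.3% of all genes. *Prm1*, a protamine of late spermatids, stood at 930 to 2579 RPKM in 3 spermatid libraries, but at 2.14 and 0.579 RPKM in those of knockout mouse 286 and wildtype mouse 648. In each library of these 2 mice, whole testis included, it was at most 2.14 RPKM. It stood at 0.439 to 1.16 RPKM in 4 of the 7 whole testes, and at 1402 RPKM in the spermatogonia library of knockout mouse 544, against 0.094 to 92.9 RPKM in the other spermatogonia libraries. The longest *Csmd1* transcript ranged from 0.008 to 0.517 RPKM in 9 wildtype and from 0 to 2.0 RPKM in 11 knockout sorted libraries. It includes many exons outside the deletion, so it does not check the labels.

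The mean level of each of the 9 genes was highest in the spermatogonia gate. Secondary spermatocytes came next for all but *Adgre1* and *C5ar1*. For *Adgre1* spermatids came next (mean 1.65 RPKM, against 1.18 RPKM in secondary spermatocytes). For *C5ar1* primary spermatocytes did (0.890 against 0.581 RPKM, with mouse 613 at 4.81 RPKM). None of 8 genes was called in limma between spermatogonia and secondary spermatocytes (adjusted p from 0.149 to 0.628). In mouse 286 the sum over the 9 genes was 16.1 RPKM in spermatogonia and 19.2 RPKM in secondary spermatocytes. Of the 9 genes, 8 could be tested (genes averaging under 0.1 RPKM in the sorted libraries were left out, *Itgax* among them), and 7 of these 8 were called higher in the spermatogonia gate than in the mean of the other gates. The call is an adjusted p under 0.05 from limma on log2(RPKM + 0.1), with 22715 genes tested, of which 23.1% were called higher. The differences of the 7 ran from 1.55 ± 0.52 (SE) for *C3ar1* to 2.72 ± 0.55 for *Itgam* on the log2 scale, and the median over the 8 was 2.04, against 0.14 over all genes. The exception was *Adgre1*, at 0.95 ± 0.39 (adjusted p = 0.0685). With the mouse as a replicate block its adjusted p was 0.0253 and 8 of 8 were called, with 28.8% of all genes called higher. Exact permutation tests with the gates exchanged within the 4 mice that have a spermatogonia library (two-sided, smallest possible p 0.00521, 36 tests over the 4 gates) gave p under 0.05 for 7 of the 9 genes, and 0.333 for *Adgre1* and 0.0677 for *Cd68*. In bulk libraries, fewer cells of a type and less RNA per cell cannot be told apart, here and in every comparison that follows.

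How firmly this holds depends on wildtype mouse 648. Its spermatogonia library was the highest of the 20 sorted libraries in 8 of the 9 genes, and held 0.094 RPKM of *Prm1*. In how many of all genes that library was the highest is not given here. The part of this mouse's maturity in the result was not tested. Without that mouse only *Itgam* was called (2.51, adjusted p = 0.0424), and the other 6 differences were between 1.07 (*C3ar1*, adjusted p = 0.285) and 2.17 (*C5ar1*, adjusted p = 0.144). Over all genes, 9.35% were called higher without that mouse. Without knockout mouse 286 or 544 4 of 8 were called in each case, and 13.8% and 20.1% of all genes. Ranked by the median of the genes' z-scores, the spermatogonia libraries of mice 648, 178, 286 and 544 took places 1, 3, 4 and 5 of 20. Place 2 went to the secondary spermatocyte library of mouse 286.

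**Figure D1:**
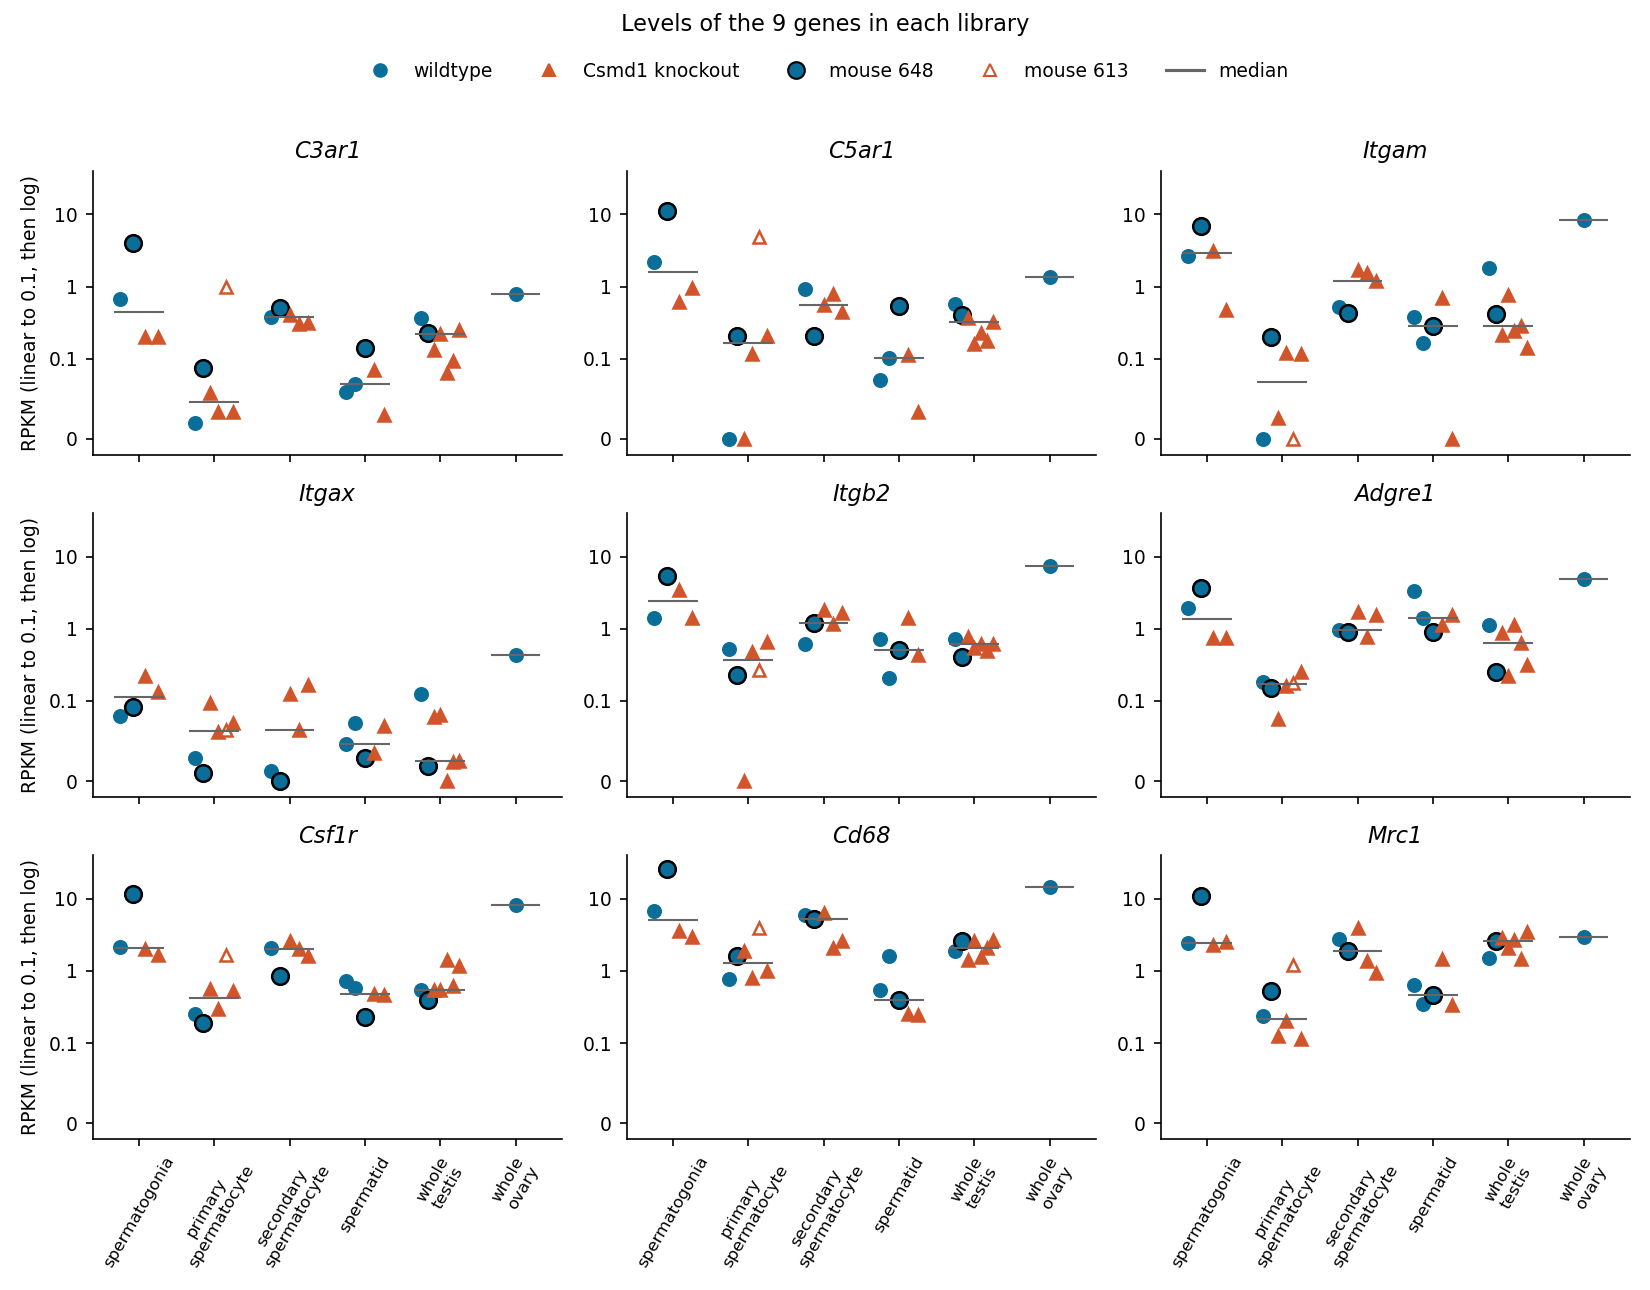
Summed RPKM of each of the 9 genes (one panel each, axis linear up to 0.1 RPKM and logarithmic above) in every library, by sorted gate and whole tissue. Circles are wildtype and triangles knockout mice, grey bars are medians, the outlined circle is mouse 648 and the open triangle mouse 613. The spermatogonia and secondary spermatocyte gates sit above the primary spermatocyte gate for most genes, and *Adgre1* is the one gene with all 5 spermatid values (0.889 to 3.29 RPKM) inside the range of the spermatogonia gate.

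The receptors for C3a and C5a followed this pattern. *C5ar1* (chromosome 7, minus strand, 16246743 to 16259540, GRCm38) had 2.20 and 11.3 RPKM in the spermatogonia gate of wildtype mice 178 and 648, and 0.607 and 0.941 RPKM in that of knockout mice 286 and 544. In the secondary spermatocyte gate it lay between 0.207 and 0.917 RPKM, and in the spermatid gate between 0.034 and 0.541 RPKM. The wildtype spermatogonia values lay above every value of those gates, while the knockout ones fell inside the secondary spermatocyte range or just above it. The spermatogonia gate was higher than the other gates by 2.66 ± 0.76 (log2, adjusted p = 0.0135). In all 4 mice with both gates, the spermatid value was at most 0.188 of the spermatogonia value. In the primary spermatocyte gate *C5ar1* was at 0 in mice 178 and 544, at 0.118 to 0.208 RPKM in mice 550, 648 and 614, and at 4.81 RPKM in mouse 613. With mouse 613 the gate's difference was -1.26 ± 0.69 (adjusted p = 0.208), and without it -1.85 (adjusted p = 0.0133).

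*C3ar1* (chromosome 6, minus strand, 122847138 to 122856161) was lower in level: 0.677 and 3.99 RPKM in the wildtype and 0.202 and 0.199 RPKM in the knockout spermatogonia libraries. Its secondary spermatocyte values were 0.304 to 0.512 RPKM and lay above both knockout spermatogonia values. Spermatids had 0.030 to 0.140 RPKM. Primary spermatocytes had 0.020 to 0.089 RPKM apart from mouse 613, which had 0.998 RPKM. The spermatogonia difference was 1.55 ± 0.52 (adjusted p = 0.0298) and did not pass after quantile normalization (1.19, adjusted p = 0.0678).

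Among the integrin chains, *Itgam* showed the widest step between gates. It lies on chromosome 7, plus strand, 128062640 to 128118491. The spermatogonia libraries had 2.69 (mouse 178), 6.88 (648), 3.09 (286) and 0.472 RPKM (544). Primary spermatocytes had a median of 0.0705 RPKM (0 to 0.200 RPKM, 6 libraries) and no overlap with any other gate but the spermatids. Secondary spermatocytes had 0.518, 0.437, 1.72, 1.52 and 1.21 RPKM in mice 178, 648, 286, 544 and 550. In this sum over transcripts the 3 knockout values lay above the 2 wildtype ones. In the longest transcript alone they did not: knockout mouse 544 had 0.101 RPKM, against 0.131 and 0.111 RPKM in wildtype mice 178 and 648. What share of all genes separated by genotype in this way is not given here. *Itgam* was lower in the primary spermatocyte gate than in the others by 2.46 ± 0.50 (log2, adjusted p = 0.00428). The readthrough gene *Gm49368* shares 3450 exon bases with *Itgam* on the same strand, so their reads cannot be told apart there.

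*Itgb2* (chromosome 10, plus strand, 77530252 to 77565708), the chain both receptors need, had 1.39 to 5.32 RPKM in spermatogonia, 0.612 to 1.80 RPKM in secondary spermatocytes, 0.208 to 1.42 RPKM in spermatids and 0 to 0.659 RPKM in primary spermatocytes. The spermatogonia gate was higher by 1.86 ± 0.54 (adjusted p = 0.0142), and the call was lost after quantile normalization (1.30, adjusted p = 0.0793). *Itgax* (chromosome 7, plus strand, 128129547 to 128150657) was near the limit of detection, from 0 to 0.222 RPKM over the sorted libraries, or at most 33 reads. Its 4 spermatogonia values were 0.081, 0.093, 0.222 and 0.133 RPKM. With the filter on low values removed, its spermatogonia difference was 0.61 ± 0.19 (adjusted p = 0.0339). Over the 20 sorted libraries its Pearson correlation with the median of the other genes was 0.31, the lowest of the 9, against 0.73 to 0.90 for the 7 called genes. These points share mice and gates, so the coefficients are a description.

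RefSeq promoter sequences (GRCm38.p6) matched 6 of the 9 genes, all but *Itgb2*, *Adgre1* and *Csf1r*, and the 250 bases before the start were searched on both strands for 3 motifs. AGGAAGT and GAGGAAG are cores bound by PU.1, the macrophage transcription factor encoded by *Spi1*, and can overlap. TTGCGCAA is a site bound by C/EBP factors. One or both PU.1 cores lay in 3 of the 6 promoters and in 15.4% of all 32851 promoters of that length, and the C/EBP site lay in 0 of 6 and in 0.164% of all. The 3 promoters with a core are shown 5′ to 3′, with each match in capitals: *C5ar1* at chr7:16259339-16259588 (minus strand), *Itgam* at chr7:128062390-128062639 (plus strand) and *Mrc1* at chr2:14229164-14229413 (plus strand). Matches on the opposite strand read as ACTTCCT or CTTCCTC.
C5ar1: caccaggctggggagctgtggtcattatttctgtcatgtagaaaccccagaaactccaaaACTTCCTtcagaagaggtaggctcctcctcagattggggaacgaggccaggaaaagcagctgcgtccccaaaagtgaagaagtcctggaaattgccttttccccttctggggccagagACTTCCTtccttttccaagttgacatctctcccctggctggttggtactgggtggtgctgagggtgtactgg
Itgam: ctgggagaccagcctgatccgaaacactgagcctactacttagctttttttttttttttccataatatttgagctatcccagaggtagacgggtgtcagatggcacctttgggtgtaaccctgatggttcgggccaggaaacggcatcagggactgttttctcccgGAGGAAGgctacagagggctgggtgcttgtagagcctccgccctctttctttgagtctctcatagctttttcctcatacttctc
Mrc1: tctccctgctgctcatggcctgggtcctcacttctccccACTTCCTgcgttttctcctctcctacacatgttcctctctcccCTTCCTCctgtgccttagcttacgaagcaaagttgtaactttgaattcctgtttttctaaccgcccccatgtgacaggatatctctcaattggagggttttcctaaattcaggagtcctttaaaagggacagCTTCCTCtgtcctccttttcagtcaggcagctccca
The match in *Itgam* starts 84 bases before the start, the matches in *C5ar1* 190 and 72 bases before it, and those in *Mrc1* 211, 168 and 36 bases before it. The start is that of the RefSeq promoter sequence. In *C5ar1* it lies inside the gene as annotated above, which reaches to 16259540, and so do its matches. *C3ar1*, *Itgax* and *Cd68* had none of these letters in this window.

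*Cd68*, *Csf1r* and *Mrc1* had the highest mean levels of the 9 genes in spermatogonia, on the per-length scale. *Cd68* (chromosome 11, minus strand, 69664213 to 69666153) had 6.67, 25.4, 3.57 and 2.99 RPKM in the spermatogonia libraries of mice 178, 648, 286 and 544. In the secondary spermatocyte gate the 5 values were 6.04, 5.23, 6.30, 2.05 and 2.64 RPKM in mice 178, 648, 286, 544 and 550. Within mice the secondary spermatocyte value was 0.685 to 1.77 times the spermatogonia value in mice 178, 286 and 544, and 0.206 times in mouse 648. In the spermatid gate *Cd68* stood at 0.544, 1.62, 0.40, 0.252 and 0.245 RPKM in mice 178, 351, 648, 286 and 544. The spermatid gate was lower than the others by 2.70 ± 0.46 (log2, adjusted p = 0.00103), and this call held under every alternative tried, with differences from -2.96 to -1.64. Its spermatogonia gate was higher by 2.15 ± 0.48 (adjusted p = 0.00308).

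*Mrc1* (chromosome 2, plus strand, 14229392 to 14332057) had 2.41, 10.8, 2.25 and 2.48 RPKM in the spermatogonia gate of mice 178, 648, 286 and 544, and 0.944 to 3.96 RPKM in secondary spermatocytes. Primary spermatocytes had a median of 0.219 RPKM (0.114 to 1.21 RPKM, the highest in mouse 613) and spermatids 0.337 to 1.47 RPKM. Its highest count in the sorted gates was 2535 reads of the longest transcript, in the spermatogonia library of mouse 648. It was higher in spermatogonia by 2.09 ± 0.55 (adjusted p = 0.00809) and lower in primary spermatocytes by 2.07 ± 0.50 (adjusted p = 0.011).

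*Csf1r* (chromosome 18, plus strand, 61100598 to 61132149) had 2.11, 11.8, 1.98 and 1.64 RPKM in the spermatogonia libraries of mice 178, 648, 286 and 544, 0.849 to 2.63 RPKM in secondary spermatocytes and 0.227 to 0.735 RPKM in spermatids. Its 2 transcripts differed in their ratio between gates. The 873 bases at its 3′ end overlap the end of *Hmgxb3*, a gene on the opposite strand at 2.92 to 9.31 RPKM in the sorted libraries of known depth, and no source used here says that strand was kept. ENSMUST00000115268 includes these bases and ENSMUST00000025523 ends before them. In the libraries of known depth their ratio was 0.845 to 1.23 in spermatogonia and 1.05 to 1.22 in secondary spermatocytes, but 2.22 to 4.04 in spermatids and 1.79 to 4.17 in primary spermatocytes. From ENSMUST00000025523 alone, an alternative chosen after seeing the data, the spermatid values were 0.045 to 0.220 RPKM. The spermatid difference was then -1.57 (adjusted p = 0.00998), against -1.28 ± 0.45 (adjusted p = 0.04) from the sum. The spermatogonia difference was 2.25 (adjusted p = 0.00118), against 1.99 ± 0.48 (adjusted p = 0.00445).

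*Adgre1* did not follow the others. The gene, on chromosome 17 (plus strand, 57358691 to 57483527), had 1.95, 3.63, 0.735 and 0.742 RPKM in the spermatogonia gate of mice 178, 648, 286 and 544. In the spermatid gate it had 3.29, 0.889, 1.11 and 1.55 RPKM in the same mice and 1.42 RPKM in mouse 351. Of the 4 mice with both gates, 3 had more *Adgre1* in spermatids than in spermatogonia, with ratios of 1.69, 1.51 and 2.08, and mouse 648 had a ratio of 0.245. For each of the other 8 genes the ratio was below 1 in 4 of 4 mice, with medians over those genes of 0.203, 0.0426, 0.233 and 0.143 in mice 178, 648, 286 and 544. Over all genes the tilt was the same way, with a median log2 difference from the other gates of 0.14 in spermatogonia and -0.29 in spermatids. What share of all genes had a ratio below 1 in 4 of 4 mice is not given here. The spermatid values of *Adgre1* rest on 55 to 234 reads of the longest transcript.

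Among the gate tests, *Adgre1* was the only one of the 8 genes called higher in the spermatid gate, by 1.0 ± 0.37 (adjusted p = 0.0493), where 10.3% of all genes were called higher. *Cd68* and *Csf1r* were called lower there, as were 19.2% of all genes, and the remaining 5 differences were between -1.70 and -0.64 without a call. With the mouse as a replicate block 7 of 8 were called, *Adgre1* higher (1.05, adjusted p = 0.0153) and 6 lower, beside 16.2% of all genes called higher and 27.8% lower. In exact permutation tests with the gates exchanged within 4 mice (two-sided, smallest possible p 0.00521), *Adgre1* was higher in 3 of 4 mice with p = 0.234, and *Cd68* alone of the 9 genes had p under 0.05 (0.00521, lower in 4 of 4 mice). *Csf1r* had an exact p of 0.109. The call for *Adgre1* stands close to the threshold. It was lost on leaving out any mouse but 613 (adjusted p from 0.0511 to 0.28), with a pseudocount of 0.01 or 1 RPKM, without the filter and with the longest transcript alone, while the direction was kept in each. It was higher in spermatids than in primary spermatocytes without overlap (0.077 to 0.255 RPKM), but within the range of secondary spermatocytes (0.769 to 1.71 RPKM). Its primary spermatocyte gate was lower than the others by 2.43 ± 0.35 (adjusted p = 0.000571). Both *Adgre1* transcripts gave nearly the same value in the sorted libraries of known depth, with a median ratio of 0.962 to 0.973 by gate, while in mouse 613 one was at 0 and the other at 0.178 RPKM. No other annotated gene overlaps its exons.

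**Figure D2:**
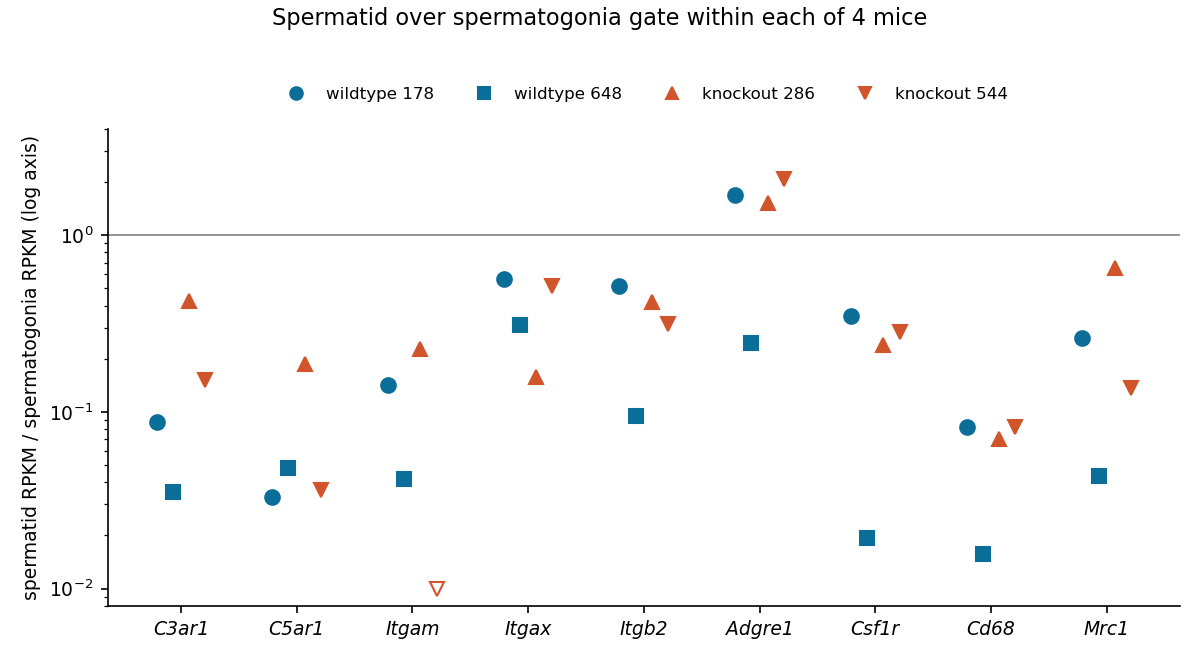
Ratio of the spermatid to the spermatogonia RPKM (log axis) of each gene within each of the 4 mice that gave both gates. The line marks equal levels, and the open symbol is a spermatid value of 0 drawn at the lower edge. Only *Adgre1* has points above the line (1.69, 1.51 and 2.08), with mouse 648 at 0.245.

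*Adgre1* was also the one gene of the 9 that stood higher in the libraries with the most *Prm1* both in the spermatid gate and in whole testis. How many of all genes did likewise is not given here, so this sets *Adgre1* apart among the 9 only. The 3 spermatid libraries with *Prm1* at 930 RPKM or more had 1.42 to 3.29 RPKM of *Adgre1*, and the other 2 had 0.889 and 1.11 RPKM. In whole testes the 3 libraries with the most *Prm1* (603 to 1922 RPKM) had 0.863 to 1.14 RPKM of *Adgre1*, and the 4 with 0.439 to 1.16 RPKM of *Prm1* had 0.222 to 0.636 RPKM. *Cd68* ran the other way in whole testes, with 1.41 to 1.87 RPKM in those 3 and 2.06 to 2.64 RPKM in those 4, and its spermatid values overlapped. *Itgb2* was above in whole testes (0.615 to 0.767 against 0.404 to 0.607 RPKM), *C3ar1* and *C5ar1* were below in the spermatid gate, *Itgax* was above in that gate at under 0.08 RPKM, and all other pairs of ranges overlapped. The spermatogonia library of mouse 544, at 1402 RPKM of *Prm1*, had 0.742 RPKM of *Adgre1*. These ranges are a description without a test, since the libraries were set apart by a measured gene, and the part of late spermatids in the *Adgre1* values was not tested.

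**Figure D3:**
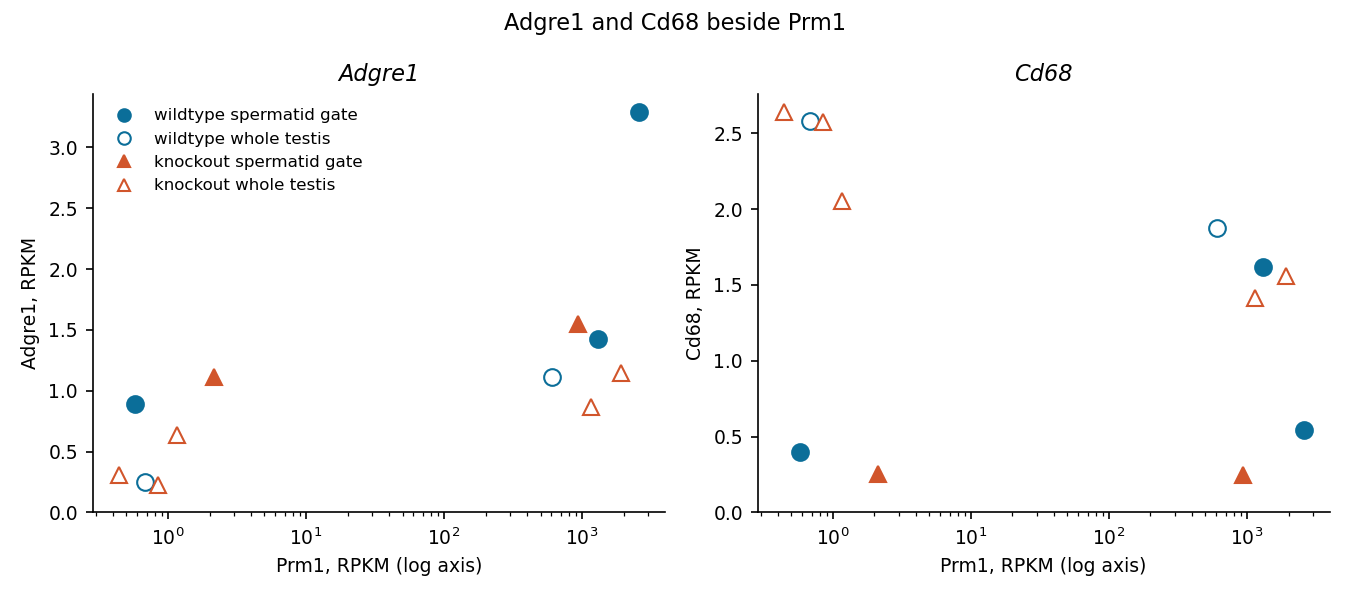
*Adgre1* (left) and *Cd68* (right) in RPKM against *Prm1* in RPKM (log axis) in 5 spermatid libraries (filled) and 7 whole testes (open), with circles for wildtype and triangles for knockout mice. *Adgre1* is 0.863 to 3.29 RPKM where *Prm1* is high and 0.222 to 1.11 RPKM where it is low, while *Cd68* in whole testes is 1.41 to 1.87 RPKM and 2.06 to 2.64 RPKM.

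The 5 genes most like *Adgre1* over the 20 sorted libraries, by Pearson's r on the log2 scale, were *Ms4a6b* (0.90), *Tek* (0.89), *Apbb1ip* (0.87), *Elovl5* (0.87) and *Nckap5los* (0.87). Of them 4, all but *Elovl5*, had a higher mean in spermatids than in spermatogonia, for example 2.44 against 1.63 RPKM for *Tek*, a receptor kinase of endothelial cells. The *Adgre1* correlation with the median of the other 8 members was 0.53, and 0.59 without mouse 613. The 10 genes nearest to the median of all 9 members were *B3gnt2*, *Tlr7*, *Fcrls*, *Ccdc80*, *Apobec1*, *Stc2*, *Stab1*, *Gm49368*, *Xdh* and *Dock1*, with r from 0.95 down to 0.92. Since *Gm49368* shares 3450 exon bases with the member *Itgam*, its r can rest partly on the same reads. *Tlr7* encodes a sensor of single-stranded RNA in immune cells, *Stab1* a scavenger receptor of macrophages and some endothelial cells. *Stab1* was the most abundant, with a mean of 25.1 RPKM in spermatogonia and 2.79 RPKM in spermatids. *Ccdc80*, made by connective tissue cells, had 11.3 and 0.402 RPKM.

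By the median of the sum over the 9 genes, the primary spermatocyte gate held least. This did not hold for every gene. The spermatid median was lower for *Cd68* (0.40 against 1.30 RPKM), *C5ar1* (0.101 against 0.163 RPKM) and *Itgax* (0.046 against 0.062 RPKM). In the primary spermatocyte gate 5 of the 8 genes tested were called lower (*Itgam*, *Itgb2*, *Adgre1*, *Csf1r* and *Mrc1*), against 12.7% of all genes. *C3ar1*, *C5ar1* and *Cd68* were not called with mouse 613 in the fit, and without it 7 of 8 were called, with 17.9% of all genes called lower. With the mouse as a replicate block a further gene was called lower in this gate, beside 23.1% of all genes. Exact permutation tests within 4 mice gave p under 0.05 for 4 of the 9 genes in this gate (*Itgam*, *Itgb2*, *Adgre1* and *Mrc1*, smallest possible p 0.00781). Without mouse 178 only *Adgre1* was called, and without mouse 648 only 2 were. Over all genes, 0.581% and 3.84% were called lower without these mice. After quantile normalization 3 of 8 were called, and of all genes called in that gate 56.7% were higher, against 29.4% as deposited. The sum over the 9 genes was 2.01 to 13.1 RPKM in primary spermatocytes (median 2.92, the highest in mouse 613), 3.16 to 6.48 RPKM in spermatids (median 4.59), 10.002 to 19.2 RPKM in secondary spermatocytes (median 11.2) and 10.98 to 79.2 RPKM in spermatogonia (median 18.1). Spermatogonia and secondary spermatocytes thus overlapped in total, and spermatids overlapped with primary spermatocytes.

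Secondary spermatocytes carried these RNAs too. All 8 differences from the other gates were positive (median 0.82, against 0.22 over all genes), but limma called 0 of 8, and 0% of all genes were called in either direction. At an unadjusted p under 0.05 from limma, *Cd68* alone passed (1.35 ± 0.46, adjusted p = 0.561), beside 1996 of the 22715 genes. Against primary spermatocytes directly, *Itgam* (2.53 ± 0.61, adjusted p = 0.0373), *Mrc1* (2.34 ± 0.61, adjusted p = 0.0486) and *Adgre1* (2.18 ± 0.43, adjusted p = 0.0191) were called higher, where 2.81% of all genes were. Spermatogonia were not distinguishable from secondary spermatocytes in any of the 8: the differences were 0.35 to 1.77 in favour of spermatogonia, with adjusted p from 0.149 to 0.628 and 0 of 8 at an unadjusted p under 0.05 from limma, and 11.4% of all genes were called higher. Within mice, the secondary spermatocyte value was above the spermatogonia value in 2 of 4 mice for *C3ar1*, *Csf1r*, *Mrc1* and *Adgre1*, and in 0 of 4 for *C5ar1* and *Itgb2*. The order of levels was thus spermatogonia, secondary spermatocytes, spermatids and primary spermatocytes for the total, and the first pair did not differ beyond the spread.

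**Figure D4:**
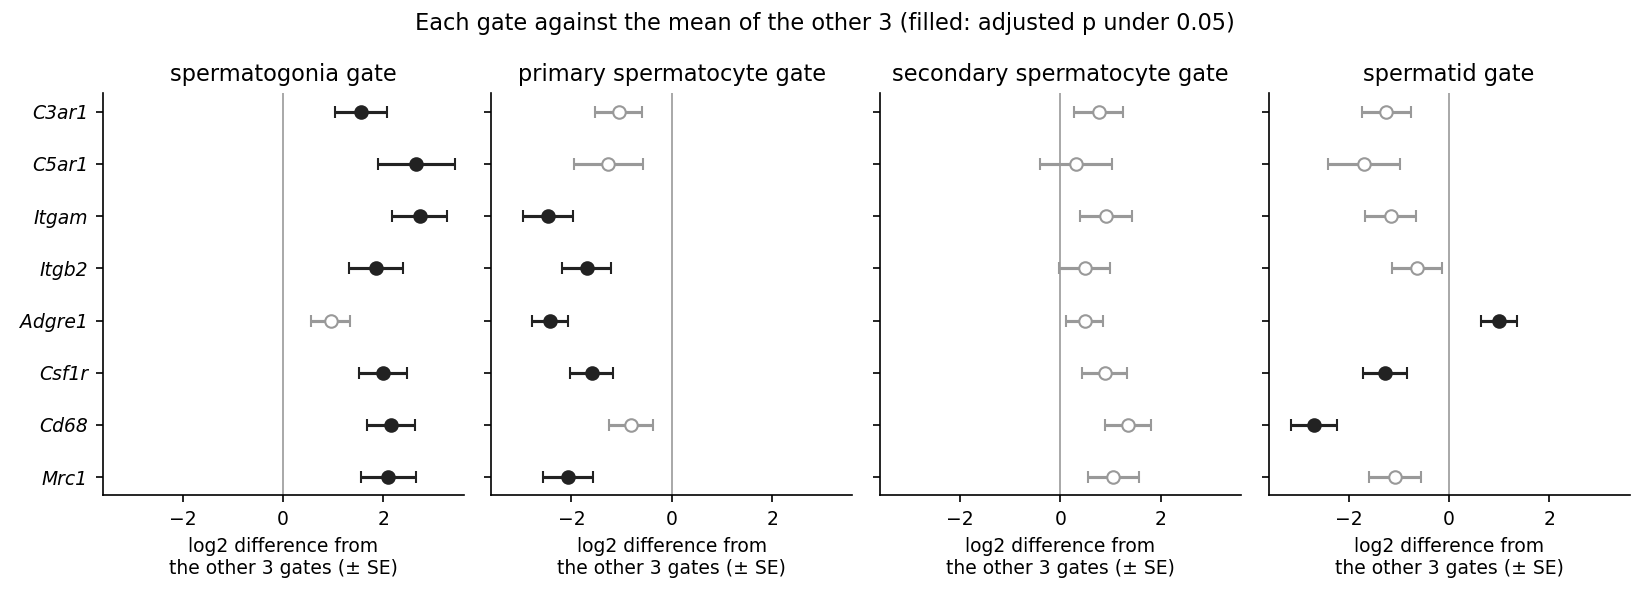
Log2 difference of each gate from the mean of the other 3 gates (± SE, limma) for the 8 genes tested, averaged over both genotypes. Filled points have an adjusted p under 0.05. To the right of 0, 7 points are filled in the spermatogonia panel (1.55 to 2.72), 5 to the left in the primary spermatocyte panel and 0 in the secondary spermatocyte panel, and *Adgre1* is the one point to the right in the spermatid panel (1.0).

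Knockout and wildtype mice could not be told apart in these genes. Over the 4 gates together limma called 0 of 8 genes, 1 passed an unadjusted p under 0.05 (*Cd68*, knockout minus wildtype -0.88 ± 0.40, adjusted p = 0.634), and 0.0088% of all genes were called. Without mouse 286 limma called 0 of 8 as well, but 4.32% of all genes higher and 0.231% lower. Within each single gate 0 of 8 were called, and 0% of all genes. At an unadjusted p under 0.05, limma had 3 of 8 in spermatogonia, against 4.97% of all genes, and 0 of 8 in each other gate, against 7.72% in the primary spermatocyte, 3.15% in the secondary spermatocyte and 0.762% in the spermatid gate. The 3 were in a gate where all 8 differences were negative (median -1.71, against 0.09 over all genes): *C3ar1* (-2.57 ± 0.93), *Adgre1* (-1.72 ± 0.69) and *Cd68* (-1.96 ± 0.86), each with an adjusted p of 0.947. This gap rests on 2 mice of each genotype, with mouse 648 on the wildtype side. Between mice 178 and 286, whose libraries share the same set of transcripts without a value, the differences of the 9 genes ran from -1.70 to 1.23 with a median of -0.09. In whole testis 0 of 8 were called (adjusted p of 0.544 and above), 0% of all genes were, and at an unadjusted p under 0.05 limma had 0 of 8 and 2492 of 22763 genes. Without mouse 648 limma again called 0 of 8, and 0.0258% of all genes higher and 0.657% lower. Exact permutation tests of the 9 genes (two-sided, 18 in all) gave p from 0.0536 to 0.982 with 1 value per sorted mouse (5 knockout against 3 wildtype mice, smallest possible p 0.0179) and from 0.0952 to 1 in whole testis (5 against 2, smallest possible p 0.0476).

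The higher level in spermatogonia was called in wildtype and not in knockout mice, but the difference between the genotypes was not called. In wildtype mice 8 of 8 genes were called higher (1.83 to 4.08), against 19.9% of all genes. In knockout mice 0 of 8 were (0.07 to 1.72), against 0% of all genes, and 1 of 8 had an unadjusted p under 0.05 from limma, beside 3519 genes. The tests of the difference gave -2.85 to -0.70, with adjusted p from 0.882 to 0.928, and 0% of all genes were called. The knockout side of this comparison holds the library of mouse 544 with 1402 RPKM of *Prm1*.

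Whole tissue gave a level beside that of the sorted gates. Per the study's methods, 1 testis of a mouse went to whole-tissue RNA and the other to sorting. The whole testis is thus not the input of the sort. In whole testes the sum over the 9 genes was 5.86 to 8.94 RPKM, led by *Mrc1* (2.39 ± 0.74 RPKM, SD, n = 7 mice) and *Cd68* (2.10 ± 0.51 RPKM), followed by *Csf1r* (0.749 ± 0.381 RPKM), *Adgre1* (0.648 ± 0.40 RPKM), *Itgb2* (0.592 ± 0.127 RPKM) and *Itgam* (0.548 ± 0.584 RPKM). *C5ar1* (0.319 ± 0.145 RPKM), *C3ar1* (0.197 ± 0.10 RPKM) and *Itgax* (0.0504 ± 0.0447 RPKM) came last. *Mrc1* and *Cd68* differed by less than their spread, as did each pair of neighbours from *Csf1r* down to *C3ar1*. From 3 mice there were both a whole testis and a spermatogonia gate. For 8 of the 9 genes the sorted spermatogonia held more than the whole testis in 3 of 3 mice, from 1.16 times (*Adgre1* in mouse 286) to 29.4 times (*Csf1r* in mouse 648), and for *Itgax* in 2 of 3. No share over all genes stands beside this count, so it describes the 9 genes only. In mouse 286 *Adgre1* had the lowest of the 9 ratios (1.16), and the median of the other 8 was 3.3. In mice 178 and 648 it had 1.75 and 14.6, against medians of 1.89 and 14.8.

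The wildtype ovary held more of nearly all of them than any testis. It had 14.6 RPKM of *Cd68*, 8.33 of *Itgam*, 8.16 of *Csf1r*, 7.42 of *Itgb2*, 4.96 of *Adgre1*, 2.93 of *Mrc1*, 1.34 of *C5ar1*, 0.792 of *C3ar1* and 0.435 of *Itgax*. Of the 9, 8 lay above all 7 whole testes, as did 43.0% of the 20247 genes with a testis median above 0.1 RPKM. The ratio to the testis median was 29.8 for *Itgam* and 7.11 for *Cd68*, against a median of 1.49 over those genes. *Mrc1* was the exception, at 1.1 times the testis median and inside the testis range of 1.48 to 3.48 RPKM. With 1 ovary there is no replicate check.

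A further 26 macrophage genes were read beside the members, of which 25 were tested. In the spermatogonia gate 15 of 25 were called higher and 0 lower (median 2.13), where 23.1% of all genes were called higher and 11.2% lower. Among the 4 most abundant there, *Cd74*, the invariant chain of MHC class II, was higher by 5.83 ± 0.88 (adjusted p = 0.000238) and *Laptm5*, a lysosomal protein of blood cells, by 3.89 ± 0.82 (adjusted p = 0.00196). The other 2 went elsewhere. *Aif1*, known as IBA1 and a standard macrophage marker, had 59.2 to 1654 RPKM in spermatids and was called higher there (3.35 ± 1.1, adjusted p = 0.0339), with 10.7 RPKM in the ovary. *Fcgr3*, a receptor for antibodies, had means of 20.98 RPKM in spermatogonia and 68.1 RPKM in primary spermatocytes and was called in neither the spermatogonia nor the spermatid gate. *Msr1*, a scavenger receptor named here after its values were seen, had means of 3.08 RPKM in spermatids and 1.67 RPKM in spermatogonia, with a spermatid difference of 1.66 ± 0.68 (adjusted p = 0.0737). In the spermatid gate 11 of 25 were called lower and *Aif1* alone higher, against 19.2% and 10.3% of all genes. The list's summed level was 133 to 1681 RPKM in spermatids (median 725). In spermatogonia it was 130 to 253 RPKM in 3 libraries and 1786 RPKM in that of mouse 544, where *Aif1* alone had 1698 RPKM and *Prm1* was high too. *Spi1*, which encodes PU.1 and was likewise named after its values were seen, had 0.362 to 1.55 RPKM in spermatogonia (1.69 ± 0.69, adjusted p = 0.067).

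**Figure D5:**
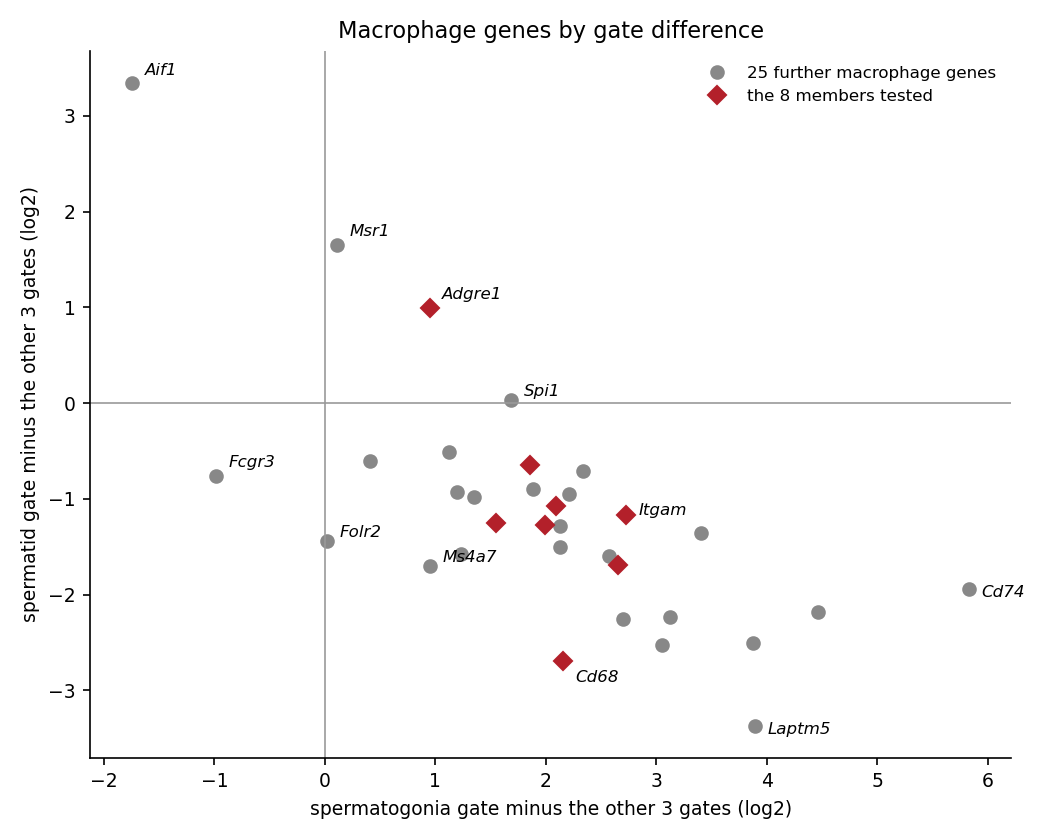
For the 8 members tested (diamonds) and 25 further macrophage genes (circles), the log2 difference of the spermatogonia gate from the other 3 gates (x axis) against that of the spermatid gate (y axis). The axes share libraries, so a slope between them has no meaning of its own. Most genes lie at the lower right, while *Adgre1* (0.95 and 1.0), *Msr1* (0.11 and 1.66) and *Aif1* (-1.74 and 3.35) lie above 0 on the spermatid axis, as does *Spi1* by 0.03.

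Ligands went partly with their receptors. Of 6 ligand genes tested, 4 were called higher in spermatogonia, where 23.1% of all genes were: *C3*, the source of C3a and iC3b (7.86 to 17.0 RPKM, 2.18 ± 0.45, adjusted p = 0.00186), *Csf1*, a ligand of CSF1R (2.24 to 46.2 RPKM, 2.74 ± 0.58, adjusted p = 0.00205), and *Icam1* and *Icam2*, which bind CD18 integrins. *Icam2* and *Hc* are named after their values were seen. *Hc*, which encodes C5, and *Il34* were not called, at means of 0.635 and 0.873 RPKM in spermatogonia. In the ovary *C3* stood at 468 RPKM. Of 7 other complement receptors and relatives, *Cr1l* (2.63 ± 0.48, adjusted p = 0.000776) and *C1qbp* (1.31 ± 0.45, adjusted p = 0.0331) were called higher in spermatogonia and *Cmklr1*, the chemerin receptor, lower (-1.42 ± 0.52, adjusted p = 0.0436), a share near that of all genes. *C5ar2*, the second receptor for C5a, had 1.002 RPKM in spermatogonia and 0.956 RPKM in spermatids on average (0.12 ± 0.47, adjusted p = 0.868). In spermatids *Cmklr1* (1.39 ± 0.49, adjusted p = 0.0404) and *Cr2*, complement receptor 2 and named after its values were seen (1.62 ± 0.51, adjusted p = 0.0237, at 0.317 to 1.42 RPKM), were called higher.

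Relatives of the members split. Of 12 tested, 6 were called higher in spermatogonia and 3 lower, against 23.1% and 11.2% of all genes. *Itgb1*, the beta chain of another integrin family, was higher (3.71 ± 0.61), as were *Lamp2*, a lysosomal relative of CD68 (2.88 ± 0.46), and *Kit* (4.82 ± 0.66), a relative of *Csf1r* that spermatogonia themselves use. *Lamp1* was not called (-0.41 ± 0.44, adjusted p = 0.49). Of the CD11 relatives, named after their values were seen, *Itgad* was lower in spermatogonia (-2.93 ± 0.90, adjusted p = 0.0198), with a mean of 11.1 RPKM in spermatids, and *Itgae* was lower too (-1.80 ± 0.42, adjusted p = 0.00371), while *Itgal* was not called (-0.46 ± 0.45, adjusted p = 0.448).

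Stromal and Sertoli markers were higher in the same gate. In spermatogonia, where 23.1% of all genes were called higher, 6 of 6 peritubular and stromal markers were (summed level 30.7 to 819 RPKM, against 2.68 to 28.2 in spermatids), 3 of 5 Sertoli markers (368 to 658 against 28.4 to 314 RPKM), 2 of 6 endothelial (5.27 to 13.5 against 3.16 to 13.5 RPKM) and 0 of 6 Leydig markers (10.7 to 328 against 2.11 to 11.9 RPKM). Mouse 648 had the highest spermatogonia sum in each of these 4 lists, as it had in the members. *Dcn*, a stromal matrix gene, was at 645 RPKM there and at 19.3 RPKM in the lowest library. The Sertoli gene *Rhox5*, named after its values were seen, was listed at 0 in all 4 spermatogonia libraries, as in the 7 whole testes. Of 11 markers of other blood cells tested, *Cd3e* of T cells alone was called higher (2.58 ± 0.53, adjusted p = 0.00174, 0.399 to 3.66 RPKM). *Cd3d*, also of T cells, went the other way without a call (-1.44 ± 0.82, adjusted p = 0.184). Its means were 1.14 RPKM in spermatogonia and 3.74 RPKM in primary spermatocytes. The list's summed level was 4.63 to 19.2 RPKM in spermatogonia and 3.81 to 10.9 RPKM in spermatids, with mouse 648 the lowest in spermatogonia. The neutrophil gene *S100a8* and the mast cell gene *Fcer1a* were listed at 0 in all 4 spermatogonia libraries, but other genes of these cells were not. The neutrophil genes *S100a9* and *Retnlg* reached 0.423 and 0.447 RPKM there, and the mast cell genes *Mcpt4* and *Cpa3* 0.687 and 0.121 RPKM. All of these neutrophil and mast cell genes are named after their values were seen. The part of each of these cell types in the members' values was not tested.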

How the data were processed

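Poly(A) RNA of 20 sorted germ cell libraries, 7 whole testes and 1 ovary was sequenced as paired 101-nt reads. The authors aligned them with TopHat 2 to mm10 and deposited RPKM values per transcript of Ensembl release 72, without read counts. The 94480 transcripts were matched to GENCODE release M21 (GRCm38) by identifier (95.6% matched) and RPKM values were summed per gene, so a read lying in several isoforms counts several times. Missing values were set to 0, and no transcript of the 9 genes had one. Depth was estimated from the smallest step between values: in 27 libraries 93.1 to 94.6% of values of transcripts of 200 to 2500 nt lay within 0.06 of a whole read (12% by chance), against 14.0% in the library of mouse 613. For *Itgam*, *Csf1r* and the other genes with several transcripts, reads are given for the longest one only. At these depths the genes rest on 17 to 2535 reads per library in spermatogonia, 0 to 141 in primary spermatocytes, 0 to 861 in secondary spermatocytes and 0 to 370 in spermatids.

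Groups came from the labels. Values were fitted on log2(RPKM + 0.1) with limma 3.58.1 in R 4.3.3 (moderated variances with a trend on the mean), with Benjamini-Hochberg adjustment over all genes tested and a threshold of 0.05. The sorted fit held 20 libraries in 8 groups of genotype by gate and 22715 genes, and the whole testis fit 7 libraries and 22763 genes. Because of the pseudocount, fold changes of low genes are understated. The script was tested on simulated data. Several gates came from the same mouse per the labels, and the libraries of a mouse correlated after the fit (consensus correlation 0.401), so p-values that take libraries as independent are given beside a fit with the mouse as a replicate block where that changes a call. Exact permutation tests compared genotypes with 1 value per mouse. Alternatives were pseudocounts of 0.01 and 1 RPKM, no filter, quantile normalization, transcripts with a value in every library, the longest transcript alone and leaving out each mouse. The study's methods also name PEER and PoissonSeq, which were not run here. Python 3.11.15 with numpy 2.4.6, scipy 1.17.1, pandas 2.3.3 and matplotlib 3.10.9 served for the rest.

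The genes and all lists were chosen with earlier results of these data known. Beside the 9 genes, the rule for names took up to 4 genes per list with the highest mean RPKM in spermatogonia, the 10 genes most like the median of the 9 and the 5 most like *Adgre1*; any other is said to be named after its values were seen.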

Additional observations from a re-analysis of the deposited data

Results flagged for a closer look

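Of 18 groups of 4 to 10 samples examined for 1 sample far from the others, 4 held one, and chance alone gives about 1 in 20. In the knockout primary spermatocyte gate, 3 of them were the library of mouse 613, whose values follow no whole-read step. It had 0.998 RPKM of *C3ar1*, against 0.034 to 0.057 RPKM in the other 3 knockout libraries, a gap of 0.976 of the group's range. It had 4.81 RPKM of *C5ar1*, against 0 to 0.208 RPKM (0.957 of the range), and 1.21 RPKM of *Mrc1*, against 0.114 to 0.203 RPKM (0.919 of the range). In the same library *Itgam* was at 0. Leaving that mouse out moved the count called in the primary spermatocyte gate from 5 to 7 of 8.

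Among the 5 knockout whole testes, mouse 269 had 0.757 RPKM of *Itgam*, against 0.14 to 0.28 RPKM in the other 4, a gap of 0.773 of the range. This held for the sum over transcripts only. The longest transcript alone had 0.057 RPKM in mouse 269, within the 0.035 to 0.063 RPKM of the other 4.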

How the results depend on the processing

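The counts of genes called between genotypes, within the single sorted gates and in whole testis, and in the secondary spermatocyte gate were 0 of 8 under each alternative. The spermatogonia count of 7 was 5 to 8 under the settings other than leaving out a mouse (5 after quantile normalization, 8 without the filter and with the block) and 1 to 7 on leaving out a mouse. The primary spermatocyte count of 5 was 3 after quantile normalization, higher with the mouse as a replicate block and 1 to 7 on leaving out a mouse (1 without mouse 178, 7 without mouse 613). The spermatid count of 3 was 1 with a pseudocount of 0.01 RPKM, 1 without the filter, 7 with the mouse as a replicate block and 1 to 5 on leaving out a mouse (1 without mouse 178, 351, 544 or 648, 5 without mouse 613). Quantile normalization moved the median of all genes in the primary spermatocyte gate from -0.19 to 0.10 and in spermatogonia from 0.14 to -0.10, and the share of calls that were higher in spermatogonia from 67.4% to 51.0% and in spermatids from 34.8% to 48.0%. With the replicate block the whole-table calls in spermatogonia were 6539 higher, against 5248.

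Differences that changed sign were all uncalled. *C5ar1* in secondary spermatocytes (0.30) was -0.15 with a pseudocount of 1 RPKM, -0.0492 after quantile normalization and -0.52 to 1.16 on leaving out a mouse. For knockout minus wildtype over the gates, *Itgam* (-0.20) was -0.91 to 0.51 and *Mrc1* (-0.31) -0.67 to 0.0060 on leaving out a mouse, *Itgb2* (0.21) was -0.0893 after quantile normalization and -0.16 to 0.75 on leaving out a mouse, and *Csf1r* (0.09) was -0.0912 with a pseudocount of 1 RPKM, -0.25 after quantile normalization, -0.10 from the short transcript and -0.0151 to 0.20 on leaving out a mouse. In whole testis, *Itgb2* (0.12) was -0.0236 after quantile normalization and -0.23 to 0.47 on leaving out a mouse, *Adgre1* (0.001) was -0.0223 with a pseudocount of 1 RPKM, -0.29 after quantile normalization, -0.00908 from the longest transcript and -0.90 to 0.90 on leaving out a mouse, *Cd68* (-0.14) was -0.36 to 0.0814 on leaving out a mouse, and *Mrc1* (0.27) was -0.18 after quantile normalization and -0.10 to 0.64 on leaving out a mouse. The cause was not tested. Of the recomputed differences of single genes, 623 kept their direction and side of the threshold, 49 lost a call, 13 gained one and 24 changed sign.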
